A study of Homo sapiens with 16 samples.

Results

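The multimerins MMRN1 and MMRN2 were described across G401 cells in which BRD9, a bromodomain subunit of the SWI/SNF chromatin remodeling complex, had been deleted with CRISPR-Cas9. The 2 genes were selected on their measured values in these same libraries and taken by gene symbol, and they are 2 of the 57820 genes in the files. Both passed the filter on low counts, as 15027 genes did. G401 is an established cell line derived from a rhabdoid tumor of the kidney, and every library came from it. The groups were BRD9 KO cells and cells given a guide to the bacterial LacZ sequence, which has no target in human DNA, on days 1, 2, 3 and 5. Each guide and day had 2 libraries, 8 groups and 16 libraries in all. The study's methods call the libraries of a group biological replicates, and neither they nor the labels say whether these were separate cultures, so p-values measure only the spread between these libraries. No clone is named in the labels, so each library is taken as bulk RNA of a population that can hold edited and unedited cells, in which fewer cells of a type and less RNA per cell cannot be told apart.

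Multimerins are secreted glycoproteins that link through disulfide bonds into very large polymers. They share an EMI domain near the start and a C1q-like domain at the end with the EMILIN proteins of elastic fibers. MMRN1 is known from platelets, where it is stored in alpha granules with coagulation factor V, and from endothelium, and it supports adhesion through integrins. MMRN2 is deposited in the matrix around blood vessels, where it binds VEGFA and the receptors CLEC14A, CD93 and CD248.

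MMRN1 (ENSG00000138722.5) spans chr4:90800683-90875780 on the plus strand of GRCh37. A pair of promoter windows applies, since the annotation starts a coding transcript of 5217 bases and 9 exons at the upstream start and another of 5001 bases and 8 exons at a start 15322 bases further on. MMRN2 (ENSG00000173269.9) spans chr10:88695297-88729238 on the minus strand. Its transcript of 4127 bases and 7 exons begins at position 88717372, and the other 6 annotated transcripts are 354 to 1020 bases long. Coding transcripts of 829 and 890 bases start further upstream, at positions 88729238 and 88729069, and no window before them is shown. The 250 bases before each RefSeq start are shown because the RNA of these genes, and of the gene that faces MMRN2, is what the comparisons below concern. Capitals mark matches to the motifs searched.
MMRN1 promoter 1, chr4:90800412-90800661, plus strand: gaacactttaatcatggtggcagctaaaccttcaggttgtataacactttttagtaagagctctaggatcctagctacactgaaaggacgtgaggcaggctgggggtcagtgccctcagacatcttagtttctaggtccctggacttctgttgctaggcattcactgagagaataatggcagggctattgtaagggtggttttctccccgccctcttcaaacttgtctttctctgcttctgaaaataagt
MMRN1 promoter 2, chr4:90815755-90816004, plus strand: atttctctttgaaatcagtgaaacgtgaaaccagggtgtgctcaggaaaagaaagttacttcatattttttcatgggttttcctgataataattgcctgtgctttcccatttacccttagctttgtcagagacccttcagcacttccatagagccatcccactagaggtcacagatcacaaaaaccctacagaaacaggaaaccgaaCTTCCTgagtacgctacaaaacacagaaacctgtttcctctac
MMRN2 promoter 1, chr10:88717373-88717622, minus strand: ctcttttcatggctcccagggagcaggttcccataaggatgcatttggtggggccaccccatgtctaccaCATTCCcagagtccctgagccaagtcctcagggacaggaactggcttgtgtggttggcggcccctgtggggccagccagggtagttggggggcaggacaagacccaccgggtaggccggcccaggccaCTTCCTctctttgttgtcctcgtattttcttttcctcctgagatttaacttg

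The sequences are from RefSeq on GRCh37, written 5′ to 3′ on the strand of the gene. Motifs searched on both strands were that of AP-1, spelled TGANTCA, that of TEAD factors, spelled GGAATG, and that of GATA factors, spelled AGATAA. The others were that of ETS factors, spelled AGGAAG, the MYC E-box, spelled CACGTG, and the TATA box, spelled TATAAA. The upstream MMRN1 window held none of these letters. The downstream MMRN1 window held the ETS letters once, and the MMRN2 window held the TEAD and the ETS letters once each, all read on the opposite strand and without overlap. Among 35116 promoter windows of the same length, 28.7% held the ETS letters, 11.9% the TEAD letters, 10.7% the TATA letters, 9.17% the GATA letters, 6.57% the AP-1 letters and 6.34% the E-box letters. The MMRN1 windows had a GC content of 46.0% and 41.6% with 2 and 3 CG dinucleotides, and the MMRN2 window 58.0% with 4, against medians of 58.0% and 11 over all windows. A match of letters is a description and does not show binding.

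BRD9 RNA was lower in every BRD9 KO library than in any LacZ library, at 12.3 to 20.27 TPM across the BRD9 KO libraries and 34.96 to 49.12 TPM across those of LacZ over the 4 days. TPM is the read estimate of a gene per transcript length, scaled to the same total in each library. The sum of expected counts was 9185808 to 16560669 for BRD9 KO libraries and 11252814 to 15430060 for LacZ libraries. SMARCB1, which rhabdoid tumors lose, was at 0 TPM in every BRD9 KO library and at 0 to 0.19 TPM in LacZ libraries. The keratin KRT8 was at 2805.67 to 5426.57 TPM in BRD9 KO and 2819.34 to 4176.55 TPM in LacZ libraries. KRT18 was at 2578.65 to 5044.54 TPM in BRD9 KO and 2516.99 to 3806.91 TPM in LacZ libraries, and vimentin (VIM) at 1365.65 to 1857.18 TPM in BRD9 KO and 1425.36 to 1921.64 TPM in LacZ libraries.

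Most markers of the cell types in which multimerins are best known were at or near 0. Of 17 endothelial markers in the files, 15 stayed below 1 TPM in every library, and KDR, EMCN, SOX17 and CLEC14A were at 0 in all of them. The sum over the endothelial markers was 34.24 to 54.15 TPM in BRD9 KO and 32.88 to 51.11 TPM in LacZ libraries, most of it EGFL7. Of 13 megakaryocyte and platelet markers, 9 stayed below 1 TPM, PF4, PPBP and GP9 were at 0, and the sum was 6.31 to 14.98 TPM in BRD9 KO and 8.52 to 12.37 TPM in LacZ libraries. The 7 lymphatic endothelial markers summed to 3.04 to 7.0 TPM in BRD9 KO and 4.83 to 7.33 TPM in LacZ libraries. On day 5 none of the 3 endothelial, 3 megakaryocyte and 1 lymphatic markers that were tested was called by edgeR's quasi-likelihood test, DESeq2 or limma, with no adjusted p from DESeq2 for 3 of them. At an unadjusted p under 0.05 in edgeR 2 of them were lower, EGFL7 at -0.22 (adjusted p = 0.095) and NFE2 at -0.59 (adjusted p = 0.0687) on the log2 scale.

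MMRN1 was among the abundant RNAs of this line. Its TPM exceeded that of 89.4% to 96.5% of the tested genes in BRD9 KO libraries and of 94.2% to 96.6% in LacZ libraries, on 3104 to 10991 expected counts in BRD9 KO and 6094 to 11762 in the LacZ ones. On day 1 it had 246.12 and 252.54 TPM in BRD9 KO cells, against 261.20 and 259.09 TPM in LacZ cells. On day 2 it had 203.07 and 202.94 TPM in BRD9 KO cells, against 250.84 and 241.37 TPM in LacZ cells. The gap of day 1 was a few percent, whereas that of day 2 was several times the spread between replicates. On day 3 it had 119.34 and 107.36 TPM in BRD9 KO cells, against 170.78 and 172.68 TPM in LacZ cells. On day 5 it had 102.58 and 104.16 TPM in BRD9 KO cells, against 187.97 and 193.38 TPM in LacZ cells. On each day both BRD9 KO libraries lay below both LacZ libraries, and the gap widened from day to day.

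MMRN2 was a rare RNA in the same cells, above 12.2% to 27.2% of the tested genes in BRD9 KO libraries and 21.3% to 31.5% in LacZ libraries. On day 1 it had 3.43 and 4.93 TPM in BRD9 KO cells, against 5.08 TPM in each of the LacZ libraries. On day 2 it had 3.43 and 3.70 TPM in BRD9 KO cells, against 6.57 and 5.27 TPM in LacZ cells. BRD9 KO was thus lower on both days, but on day 1 by little in replicate 2. On day 3 it had 2.12 and 2.22 TPM in BRD9 KO cells, against 4.12 and 3.97 TPM in LacZ cells. On day 5 it had 3.15 and 1.52 TPM in BRD9 KO cells, against 3.96 and 3.25 TPM in LacZ cells. The day 3 groups were well apart, while on day 5 the BRD9 KO replicates differed from each other by more than replicate 1 did from the lower LacZ library. These values rested on 41.55 to 115.68 expected counts in BRD9 KO and 71.0 to 164.0 in the LacZ ones, so MMRN2 was measured far less precisely than MMRN1.

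**Figure D1:**
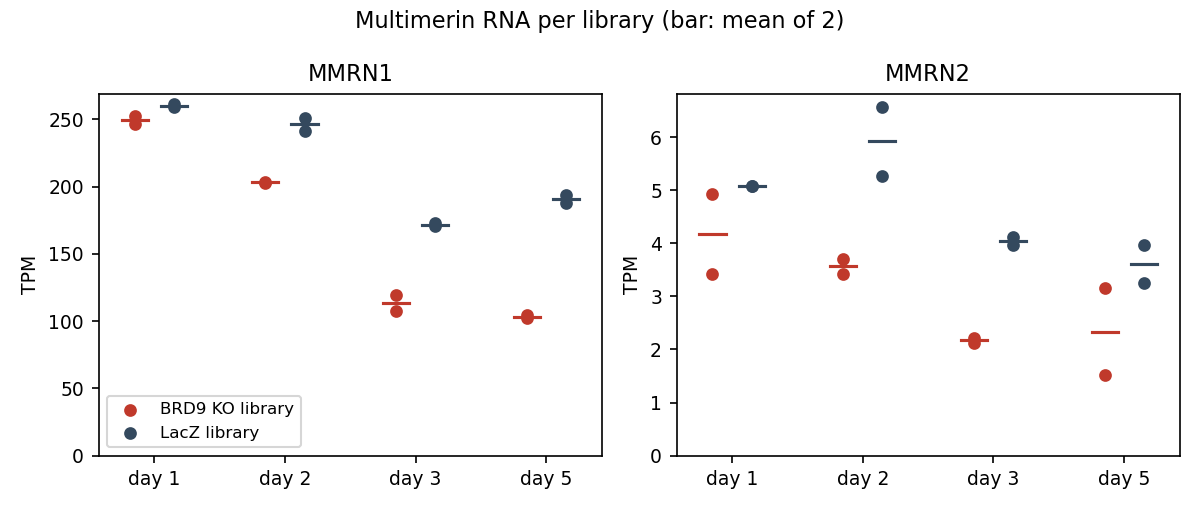
TPM of MMRN1 (left) and MMRN2 (right) in each library by day, with BRD9 KO to the left of LacZ within a day and a bar at the mean of the 2 libraries. Both BRD9 KO libraries lie below both LacZ libraries on every day, and the MMRN2 scale reaches only 6.57 TPM, against 261.20 TPM for MMRN1.

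That order, with both BRD9 KO libraries below both LacZ libraries in TPM, was shown by 19.7% of the 15027 genes on day 1, by 20.7% on day 2, by 19.7% on day 3 and by 20.9% on day 5. It was shown on each of the 4 days by 1.6% of them, 240 genes with the multimerins included. As the 2 genes were chosen on these values, nothing is read from their place among the 240.

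MMRN1 stood at 95.8% of the LacZ mean TPM on day 1, 82.5% on day 2, 66.0% on day 3 and 54.2% on day 5. Its mean was 249.3 ± 4.54 TPM in BRD9 KO and 260.1 ± 1.49 TPM in LacZ cells on day 1 (SD, n = 2). On day 5 it was 103.4 ± 1.12 TPM in BRD9 KO and 190.7 ± 3.83 TPM in LacZ cells (SD, n = 2). On counts, in the edgeR fit, the change on the log2 scale was -0.06 (standard error 0.021) on day 1, -0.31 (0.022) on day 2, -0.65 (0.023) on day 3 and -0.93 (0.023) on day 5. Days 3 and 5 together differed from days 1 and 2 together by -0.60 on the log2 scale (standard error 0.022). These are descriptions without a p-value, because they are the values that chose the gene.

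MMRN2 had log2 fold changes on counts of -0.44 on day 1 (standard error 0.145), -1.01 on day 2 (0.149), -1.22 on day 3 (0.172) and -1.03 on day 5 (0.177). Its count level was thus 73.8%, 49.7%, 43.0% and 48.9% of LacZ on days 1, 2, 3 and 5. By day 2 it was near its lowest relative level, whereas MMRN1 kept moving until day 5, and the late minus early contrast of MMRN2 was -0.40 (standard error 0.163). Whether the 2 courses differ was not tested. Per transcript length the effect was smaller, since mean TPM stood at 82.3%, 60.2%, 53.6% and 64.8% of LacZ on the same days. On log2 TPM with a pseudocount of 1 the difference was -0.25 on day 1, -0.59 on day 2, -0.67 on day 3 and -0.51 on day 5. With a pseudocount of 0.1 it was -0.71, -0.87 and -0.68 on days 2, 3 and 5. Without replicate 1 of BRD9 KO day 5 the day 5 count value was -1.24, and without replicate 2 it was -0.79.

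**Figure D2:**
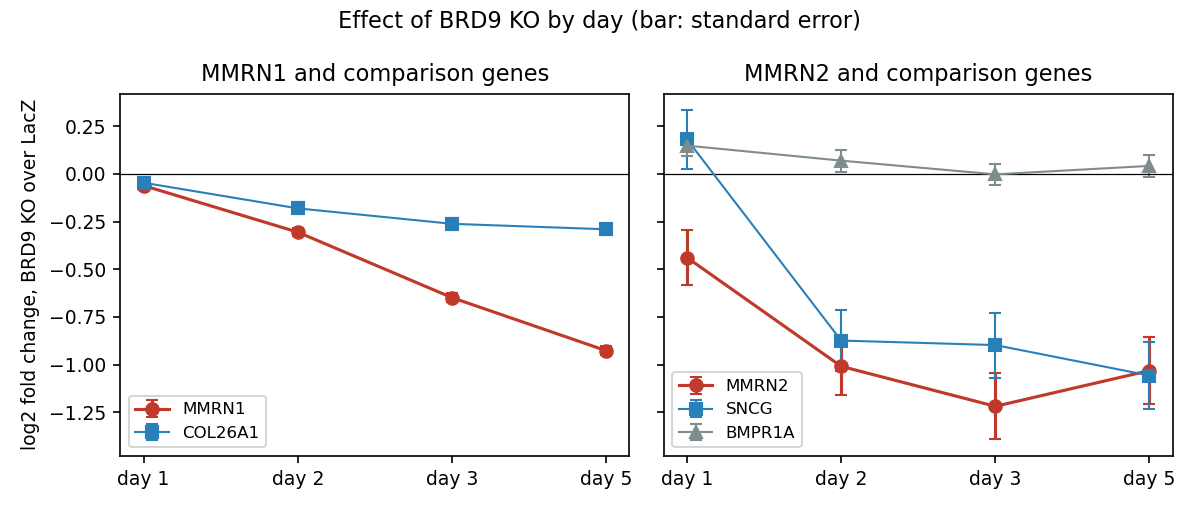
Log2 fold change of BRD9 KO over LacZ on counts by day, with standard errors, for MMRN1 beside its EMI domain relative COL26A1 (left), and for MMRN2 beside its neighbors SNCG and BMPR1A (right). MMRN1 reaches -0.93 and COL26A1 -0.29 on day 5, and MMRN2 and SNCG lie at -1.03 and -1.06.

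The control cells changed over the course as well. In LacZ cells day 5 differed from day 1 by -0.50 for MMRN1 (standard error 0.022) and -0.61 for MMRN2 (0.147) on the log2 count scale. In BRD9 KO cells the same contrast was -1.36 for MMRN1 (0.023) and -1.20 for MMRN2 (0.175). On log2 TPM with a pseudocount of 1 the MMRN2 value was -0.66 in BRD9 KO and -0.41 in LacZ cells. The LacZ level of MMRN1 was lowest on day 3, at 171.7 ± 1.34 TPM, and stood at 190.7 ± 3.83 TPM on day 5 (SD, n = 2). The LacZ level of MMRN2 was highest on day 2, at 5.92 ± 0.919 TPM, and 3.605 ± 0.502 TPM on day 5 (SD, n = 2). The time since plating or transduction is not given in the labels beyond the day, so day and culture state cannot be told apart.

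From high to low, mean TPM of MMRN1 ran from LacZ day 1 through BRD9 KO day 1, LacZ day 2, BRD9 KO day 2, LacZ day 5, LacZ day 3 and BRD9 KO day 3 to BRD9 KO day 5. Among neighbors in that order, BRD9 KO day 1 and LacZ day 2 overlapped, and the other neighbors did not. For MMRN2 the order was LacZ day 2, LacZ day 1, BRD9 KO day 1, LacZ day 3, LacZ day 5, BRD9 KO day 2, BRD9 KO day 5 and BRD9 KO day 3. Here BRD9 KO day 1 overlapped LacZ day 3, LacZ day 5 overlapped BRD9 KO day 2, and the BRD9 KO groups of days 5 and 3 overlapped. In each group mean MMRN1 was 41.6 to 59.6 times mean MMRN2 in TPM, a level per transcript length.

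RSEM also gives each gene a length, the mean over its transcripts weighted by their estimated abundance, which the choice of genes did not use. TPM has that length in its divisor, so the readouts are not free of each other. For MMRN2 the weighted length was 3508.06 and 2652.56 bases in BRD9 KO and 3516.23 and 3269.69 in LacZ libraries on day 1. On day 2 it was 2839.41 and 2892.03 bases in BRD9 KO and 3398.68 and 3485.69 in LacZ libraries. On day 3 it was 2524.92 and 2697.3 bases in BRD9 KO and 3073.07 and 3325.05 in LacZ libraries. On days 2 and 3 both BRD9 KO lengths of MMRN2 thus lay below both LacZ lengths. How many of all genes show that order in length was not counted, so nothing is read from it. On day 5 it was 2151.55 and 3224.9 bases in BRD9 KO and 3078.73 and 3281.03 in LacZ libraries, and there, as on day 1, the groups overlapped.

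Over all days the MMRN2 length was 2811 ± 417 bases in BRD9 KO and 3304 ± 166 bases in LacZ libraries (SD, n = 8 each), a difference of -492 bases. An exact permutation test of the guide labels within days, two-sided, gave p = 0.0108, where the smallest p it allows is 0.00154. It was 1 of 2 such tests, and the p is unadjusted. Leaving out any single library kept the raw p between 0.00309 and 0.0417. At a p under 0.05, a shorter length in BRD9 KO was found for 2.43% of 12617 genes whose length varied. Among the 2149 genes with a mean count within 2-fold of that of MMRN2 it was 2.79%. Both shares are near those that a two-sided test at that threshold gives in 1 direction where no length differs. In annotated lengths, shorter means a larger RSEM share of the MMRN2 transcripts of 354 to 1020 bases relative to that of 4127 bases. Which of them took the reads was not analysed here. The annotated lengths are from GENCODE, and those that the authors' RSEM used can differ.

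For MMRN1 the length was 4799 ± 105 bases in BRD9 KO and 4866 ± 52.1 bases in LacZ libraries (SD, n = 8 each), a difference of -66.5 bases with p = 0.0679 in the same exact permutation test. That p fell to 0.034 without replicate 1 of BRD9 KO day 1 and to 0.00772 without replicate 2 of BRD9 KO day 3, and it was up to 0.242 without another library. The difference of MMRN1 stayed negative, at -101.3 to -31.8 bases, while whether its p fell under 0.05 rested on which library was left out. The lengths stayed between 4600.55 and 4929.92 bases in BRD9 KO and between 4800.15 and 4941.78 bases in LacZ libraries. All were below those of its transcripts of 5001 and 5217 bases. Shorter MMRN1 transcripts of 3234 and 766 bases are also annotated, and the share of each transcript was not analysed here. Of the 5 MMRN1 transcripts in the files, 4 were found in the annotation.

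**Figure D3:**
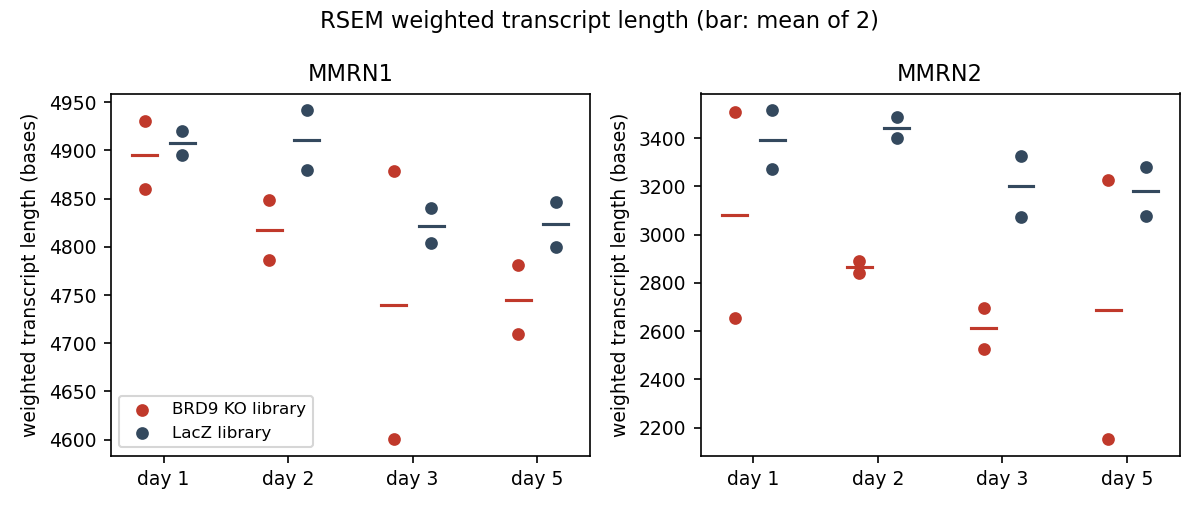
Transcript length weighted by RSEM, in bases, for MMRN1 (left) and MMRN2 (right) in each library by day, with BRD9 KO to the left of LacZ and a bar at the mean of the 2 libraries. The axes do not start at 0. On days 2 and 3 both BRD9 KO lengths of MMRN2 lie below both LacZ lengths, an order that was not counted over all genes. Replicate 1 of BRD9 KO day 1 and replicate 2 of BRD9 KO day 5 lie among the LacZ libraries.

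SNCG, which encodes gamma-synuclein, lies within the annotated span of MMRN2 on the opposite strand. Its start is 984 bases from that of the 7-exon MMRN2 transcript, so the MMRN2 window printed above lies between them. SNCG shares no exon base with MMRN2. It had 8.4 and 10.0 TPM in BRD9 KO and 18.4 and 18.83 TPM in LacZ libraries on day 5. The groups were well apart, at -1.06 on the log2 scale (standard error 0.174), with an adjusted p of 0.000258 from edgeR's quasi-likelihood test over 15027 genes. On day 1 its value was 0.18, with 19.19 and 20.1 TPM in BRD9 KO and 15.69 and 19.09 TPM in LacZ libraries, and it was not called (adjusted p = 0.774, edgeR). It fell by 0.87 on day 2 (adjusted p = 0.00323, edgeR) and by 0.90 on day 3 (adjusted p = 0.00174, edgeR) on the log2 scale. The call of day 2 ended without replicate 1 of BRD9 KO day 2 (adjusted p = 0.0994, edgeR), and DESeq2 gave SNCG no adjusted p on that day.

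Of the protein-coding genes beside MMRN1, CCSER1 was at 0.66 on day 5 (adjusted p = 0.0425, edgeR), a call that was lost with DESeq2 (adjusted p = 0.165), on the TPM scale, with the replicate block and without replicate 1 of BRD9 KO day 5 or either LacZ day 5 library. TIGD2 was at -0.10 (adjusted p = 0.67, edgeR), GPRIN3 was not tested, and ATOH1 was at 0 in all libraries. SNCB, which encodes beta-synuclein and lies on another chromosome, was at 1.16 (adjusted p = 0.287, edgeR). Beside MMRN2, the BMP receptor gene BMPR1A ends 2715 bases away and was at 0.04 (adjusted p = 0.707, edgeR). LDB3 was not called (adjusted p = 1.0, edgeR), ADIRF had at most 3 counts in a library, and FAM25A was at 0. ADIRF-AS1, named after its values were seen, shares 440 of the 5086 exon bases of MMRN2 on the same strand, with 7.35 to 38.0 expected counts in BRD9 KO and 9.4 to 28.28 in the LacZ ones. RSEM's posterior SD for the MMRN2 count was 0 to 1.19 counts, and for MMRN1 it was 0.

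The lists cover relatives, partners, neighbors, synucleins, elastic fiber genes, platelet granule genes and cell type markers. All lists were chosen with results of these data known and are described by counts and medians. They held 51 tested genes, of which 1 was higher and 0 lower on day 1 (3 and 1 at an unadjusted p under 0.05; 1 and 0 with DESeq2, 0 and 0 with limma), 1 higher and 7 lower on day 2, 2 higher and 11 lower on day 3, and 5 higher and 13 lower on day 5. Over all 15027 genes, edgeR called 0.273% higher and 0.266% lower on day 1, 1.12% and 1.58% on day 2, 4.59% and 5.85% on day 3, and 7.53% and 7.45% on day 5. Late minus early, 1 listed gene was higher and 8 were lower, against 3.41% and 4.03% of all genes. With DESeq2 the listed genes called higher and lower were 1 and 6 on day 2, 1 and 9 on day 3, 3 and 11 on day 5, and 1 and 7 late minus early. DESeq2 gave no adjusted p, and so no call, to 38 of the 51 on day 1, 33 on day 2, 16 on day 3, 16 on day 5 and 21 late minus early. With limma on TPM the calls were 1 and 2 on day 2, 1 and 5 on day 3, 3 and 5 on day 5, and 1 and 2 late minus early. The median log2 fold change over all tested genes was within 0.01 of 0 in each of these contrasts.

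Among the 4 tested EMI domain genes besides the multimerins, COL26A1 fell and EMID1, EMILIN1 and EMILIN2 were not called, with a median of 0.26 on day 5. COL26A1, a collagen with an EMI domain, had 129.5 ± 5.36 TPM in BRD9 KO and 156.2 ± 1.11 TPM in LacZ cells on day 5 (SD, n = 2), which is -0.29 on the log2 scale (standard error 0.032; adjusted p = 2.37e-06, edgeR). It was not called on day 1 (-0.05, adjusted p = 0.682, edgeR), and its values were -0.18 on day 2 and -0.26 on day 3. EMILIN1, an elastic fiber protein, and its relative EMILIN2 were near or below 1 TPM, at 0.82 (adjusted p = 0.309, edgeR) and 1.47 (adjusted p = 0.0918, edgeR), and EMID1 was at -0.33 (adjusted p = 0.731, edgeR).

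Of 10 tested genes with the C1q domain that multimerins also carry, 2 fell and none rose on day 5 by edgeR, DESeq2 and limma. Their median was 0.07, and they include EMILIN1 and EMILIN2, counted above as EMI domain genes. The 1 gene higher at an unadjusted p under 0.05 in edgeR was EMILIN2. For 6 of the 10, DESeq2 gave no adjusted p and so no call. C1QTNF6, a secreted relative of adiponectin, had 30.8 ± 3.16 TPM in BRD9 KO and 48.15 ± 0.976 TPM in LacZ cells (SD, n = 2), at -0.69 (adjusted p = 2.62e-08, edgeR). C1QL1, a synaptic C1q-like protein, had 21.61 ± 2.14 TPM in BRD9 KO and 34.23 ± 3.26 TPM in LacZ cells (SD, n = 2), at -0.67 (adjusted p = 3.07e-05, edgeR).

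Among the partners of MMRN1, ITGAV, the alpha subunit of the vitronectin receptor, rose on each day. It had 268.36 and 269.42 TPM in BRD9 KO and 185.39 and 187.65 TPM in LacZ libraries on day 5, which is 0.51 on the log2 scale (standard error 0.016; adjusted p = 7.09e-14, edgeR). On days 1, 2 and 3 it was at 0.13, 0.18 and 0.32, and the day 1 call ended on the TPM scale (adjusted p = 0.0741, limma). The integrin subunit ITGB3 was at 1.60 on day 5 (adjusted p = 0.076, edgeR), and passed the threshold with no filter on low counts (adjusted p = 0.0462, edgeR). Its day 5 means were low, at 0.86 ± 0.438 TPM in BRD9 KO and 0.21 ± 0.0566 TPM in LacZ cells (SD, n = 2). VWF was at -0.46 (adjusted p = 0.423, edgeR), F5 and ITGA2B were not tested, and the list had a median of 0.51. Of the MMRN2 partners VEGFA alone was tested, at -0.12 on day 5 on counts (adjusted p = 0.331, edgeR) and 0.11 on log2 TPM, where its direction turned, with 22.34 ± 0.148 TPM in BRD9 KO and 20.69 ± 0.17 TPM in LacZ cells (SD, n = 2). CLEC14A and KDR were at 0 in every library, and CD93 and CD248 were not tested.

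Of 14 tested elastic fiber and microfibril genes, 7 fell and 1 rose on day 5, with a median of -0.12, against 5 and 1 with DESeq2 and 1 and 0 with limma on TPM. For 2 of the 14, DESeq2 gave no adjusted p. LTBP2, a microfibril protein, was at -0.35 (adjusted p = 1.87e-10, edgeR), LOXL1, a cross-linking enzyme, at -0.17 (adjusted p = 0.00235, edgeR), and elastin (ELN) at -2.15 (adjusted p = 0.00293, edgeR). The fibrillin FBN1 rose by 0.23 (adjusted p = 0.000919, edgeR). On log2 TPM the values were -0.03 for LOXL1, -0.61 for ELN and 0.17 for FBN1, none of them called by limma. ELN was near 1 TPM and its call also ended without replicate 2 of BRD9 KO day 5 (adjusted p = 0.0787, edgeR).

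Of 10 tested genes for platelet alpha granule cargo and biogenesis, the class to which MMRN1 belongs, 2 fell and 1 rose on day 5, with a median within 0.01 of 0, against 2 and 0 with DESeq2 and 0 and 2 with limma on TPM. For 3 of the 10, DESeq2 gave no adjusted p. Thrombospondin (THBS1) was at -1.14 (adjusted p = 7.83e-05, edgeR) and SPARC, a matrix protein, at -0.15 (adjusted p = 0.000541, edgeR). On log2 TPM they were at -0.35 and -0.12, neither called by limma. The protease inhibitor TIMP1 was at 0.19 (adjusted p = 0.0123, edgeR), a call that ended with DESeq2 (adjusted p = 0.0552), and without replicate 1 of BRD9 KO day 5 or either LacZ day 5 library.

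**Figure D4:**
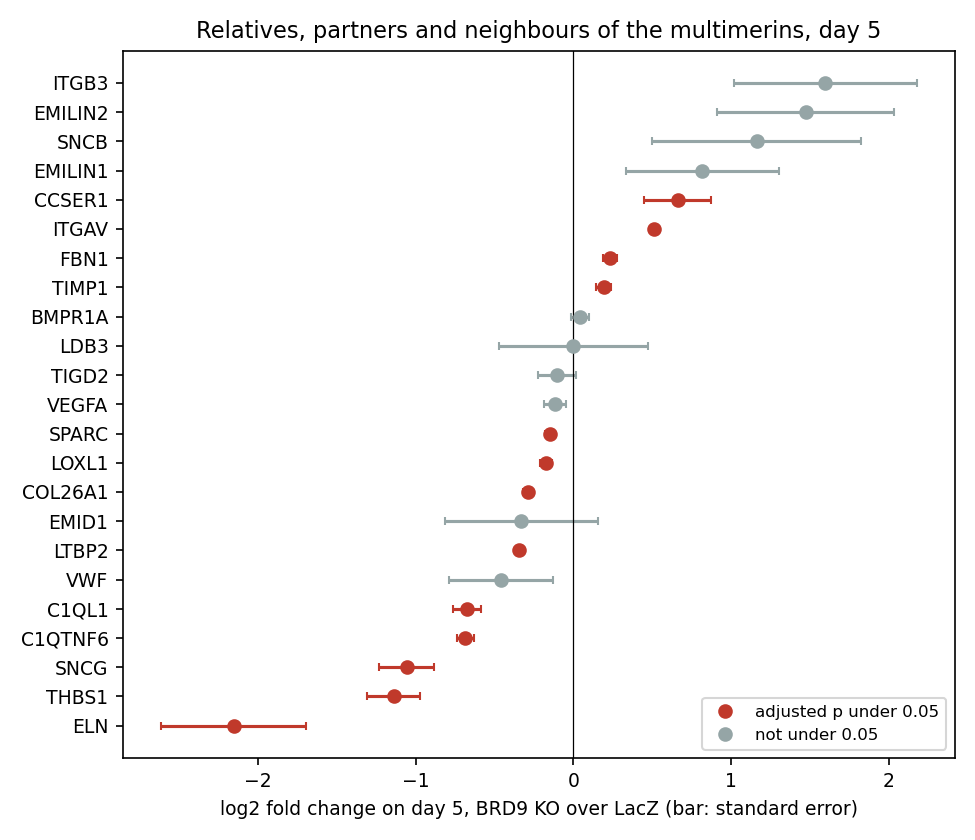
Log2 fold change of BRD9 KO over LacZ on day 5, with standard errors, for named genes of the lists. They are relatives, partners and neighbors of the multimerins, and elastic fiber and platelet granule genes. Red marks an adjusted p under 0.05 in edgeR's quasi-likelihood test, and ITGAV at 0.51 and SNCG at -1.06 lie on opposite sides of 0.

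Across the 16 libraries the log2 CPM of MMRN1 and MMRN2, TMM-scaled counts as a share of the library, correlated at r = 0.906 (Spearman's rho 0.776). Without the 2 libraries farthest from the median of MMRN1 r was 0.874. Within the 8 BRD9 KO libraries r was 0.959, and within the 8 LacZ libraries 0.819. The points share day, guide and library, so these values are descriptions. Among 12352 genes whose mean log2 CPM was 1 or more, MMRN2 was the 117th most like MMRN1, and MMRN1 was the 12th most like MMRN2.

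The genes whose log2 CPM most resembled MMRN1 over the 16 libraries were COL1A1 (r = 0.978), KIDINS220 (0.978), MRPS6 (0.975), PSG1 (0.972) and PROCR (0.972). For MMRN2 they were MYL6 (0.947), WHAMM (0.937), C1QTNF6 (0.928), NAMPT (0.920) and LASP1 (0.918). On day 5 PROCR, the endothelial protein C receptor, had 763.7 ± 0.955 TPM in BRD9 KO and 956.3 ± 9.16 TPM in LacZ cells (SD, n = 2). KIDINS220, a scaffold of neurotrophin signalling, had 59.47 ± 0.82 TPM in BRD9 KO and 85.78 ± 2.47 TPM in LacZ cells (SD, n = 2). MYL6, a myosin light chain, had 1065 ± 4.3 TPM in BRD9 KO and 1145 ± 11.7 TPM in LacZ cells (SD, n = 2). NAMPT, an enzyme of NAD synthesis, had 96.98 ± 2.43 TPM in BRD9 KO and 130.2 ± 5.21 TPM in LacZ cells (SD, n = 2). LASP1 had 161.7 ± 3.71 TPM in BRD9 KO and 165.0 ± 4.65 TPM in LacZ cells (SD, n = 2). It was at -0.05 on the log2 scale on day 5 and was not called (adjusted p = 0.176, edgeR). C1QTNF6 is also a C1q relative of the multimerins, and the likeness is over libraries that share guide and day.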

How the data were processed

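Total RNA of G401 cells was made into libraries with a NEBNext Ultra kit, and per the labels the authors used STAR, RSEM and hg19. The deposited gene tables hold RSEM expected counts, estimated counts of which 35.7% of the positive values lie over 0.005 from a whole number, and TPM, which the authors' RSEM scaled by length and library total. They also hold lengths and posterior SDs, deposited as RSEM gave them. Tool versions are not given in the sources used here. The kit as named is not the strand-marking version.

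Expected counts were rounded, genes kept by filterByExpr (minimum count 10, minimum total 15), normalized by TMM, and the 8 group means estimated in R 4.3.3 by edgeR 4.0.16 (glmQLFit, glmQLFTest), which left 8 residual degrees of freedom. A gene was called at a Benjamini-Hochberg adjusted p under 0.05 over 15027 genes. Each standard error was back-calculated, as the absolute log2 fold change divided by the square root of the F of glmQLFTest, also for the multimerins. The squared spread between the libraries of a group was at the median 1.11 to 1.33 times that of counting. Length was compared by exact permutation. Alternatives were DESeq2 1.42.0, its size factors in edgeR, limma 3.58.1 on log2 TPM (pseudocount 1 or 0.1), no filter, 1 CPM in 2 libraries, only the libraries of a contrast, the replicate block and leaving out each library. Scripts were tested on simulated data.

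The multimerins and the lists (EMI and C1q families, partners, synucleins, elastic fiber, platelet granule, and endothelial, lymphatic and megakaryocyte markers) were chosen with earlier results of these data known. Named genes were the multimerins, all tested EMI, synuclein and partner genes, 3 protein-coding genes on either side of each multimerin, in other lists up to 3 called genes per direction on day 5 with the smallest p, and the 5 genes most correlated with each multimerin. Some genes that this rule covers are not reported here.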

Additional observations from a re-analysis of the deposited data

Results flagged for a closer look

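The effect of BRD9 KO on 8 of the listed genes in the plot of day 5 differed between the late and the early days. Late days were 3 and 5, early days 1 and 2, and the test was edgeR's quasi-likelihood test of the late minus early contrast. The difference on the log2 scale was -0.46 for C1QL1 (adjusted p = 0.00181, edgeR), -0.45 for C1QTNF6 (adjusted p = 1.13e-05, edgeR), -0.16 for COL26A1 (adjusted p = 0.00273, edgeR) and 0.26 for ITGAV (adjusted p = 3e-09, edgeR). It was -0.19 for LTBP2 (adjusted p = 2.8e-06, edgeR), -0.63 for SNCG (adjusted p = 0.0244, edgeR), -0.19 for SPARC (adjusted p = 0.000119, edgeR) and -0.67 for THBS1 (adjusted p = 0.00748, edgeR). On log2 TPM the calls for COL26A1, LTBP2, SNCG, SPARC and THBS1 ended, with limma's adjusted p between 0.063 and 0.509 at a pseudocount of 1. DESeq2 gave SNCG no adjusted p for this contrast. The SNCG call also ended without any 1 of 7 libraries, with adjusted p between 0.0512 and 0.0713 (edgeR). Genes named for their likeness to a multimerin were chosen on their course over these libraries and, apart from C1QTNF6, are not counted here. C1QL1, C1QTNF6, LTBP2, SPARC and THBS1 were named for their calls on day 5, a late day, so their choice favored such a difference. Their values here are descriptions. Over all 15027 genes, edgeR called 3.41% higher and 4.03% lower in this contrast. No group had the 4 or more libraries that a check for outlying samples needs.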

How the results depend on the processing

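The direction of every multimerin value was kept under each alternative run. So was that of every call among the listed genes in the plot of day 5, and other called genes were not followed by name. On log2 TPM with a pseudocount of 1 (limma), MMRN1 was at -0.28 on day 2, -0.60 on day 3, -0.88 on day 5, -0.57 late minus early, -1.26 from day 1 to day 5 in BRD9 KO and -0.45 in LacZ cells. MMRN2 was at -0.25 on day 1, -0.59 on day 2, -0.67 on day 3, -0.51 on day 5, -0.17 late minus early, -0.66 from day 1 to day 5 in BRD9 KO and -0.41 in LacZ cells. With a pseudocount of 0.1, MMRN1 was at -0.28, -0.60, -0.88, -0.57, -1.27 and -0.45 in the same order, and MMRN2 at -0.71, -0.87 and -0.68 on days 2, 3 and 5 and -0.88 from day 1 to day 5 in BRD9 KO cells. With either pseudocount 0, 3, 6 and 8 listed genes were called on days 1, 2, 3 and 5 and 3 late minus early, against 1, 8, 13, 18 and 9 with edgeR on counts. On day 1, 1 listed gene was called by DESeq2.

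Leaving out 1 library at a time gave for MMRN1 -0.07 to -0.06 on day 1, -0.32 to -0.29 on day 2, -0.67 to -0.63 on day 3, -0.96 to -0.90 on day 5, -0.62 to -0.59 late minus early, -1.39 to -1.34 over time in BRD9 KO and -0.52 to -0.48 in LacZ cells. For MMRN2 it gave -0.50 to -0.39, -1.14 to -0.86, -1.31 to -1.11, -1.24 to -0.79, -0.50 to -0.28, -1.42 to -0.96 and -0.71 to -0.53 in the same order. The length difference was -101.3 to -31.8 bases for MMRN1 and -626 to -358 bases for MMRN2. Listed genes called were 1, 4 to 7, 9 to 10, 13 to 18 and 7 to 10, where the day 2 count was 5 when replicate 1 of BRD9 KO day 2 was left out and 4 when replicate 2 of LacZ day 2 was. An arm left with 1 library is assumed to vary like the others.

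With the replicate block within days MMRN2 was at -1.01 on day 2 and MMRN1 at -0.93 on day 5, and the CCSER1 call on day 5 was lost (adjusted p = 0.052, edgeR). ITGB3 on day 5 (adjusted p = 0.0479) and TIMP1 late minus early (adjusted p = 0.0333) passed with the block, and no other call among the genes in that plot changed. Over the tested genes, the deviations of libraries with the same number had correlations of -0.0489 to -0.0123 on the 4 days. The spread within groups was near that of counting, which by itself holds such correlations near 0. Whether equal numbers mark a pairing is therefore not settled by them. The late minus early contrast needs all libraries and was not run on fewer. With 41.55 to 164.0 counts, the standard errors of MMRN2 were 0.145 to 0.177 on the log2 scale, against 0.021 to 0.023 for MMRN1.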
